A study of Mus musculus with 2 samples.

Results

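The genes described here are the nuclear genes of the mitochondrial respiratory chain and ATP synthase, chosen by symbol and sorted into complexes by prefix: Nduf for complex I, Sdh for complex II, Uqcr for complex III, Cox4 to Cox8 for complex IV and Atp5 for complex V. The rule took 85 of the 22802 gene symbols found in the libraries, with 37 in complex I, 6 in complex II, 8 in complex III, 16 in complex IV and 18 in complex V. All 85 were listed in both libraries. The prefixes also took 4 genes that do not encode subunits: Sdhaf1 and Sdhaf2, which are assembly factors of complex II, and Atp5s and Atp5sl. Ndufa4 was counted with complex I by its prefix, although its protein is a subunit of complex IV.

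RNA was measured in single mouse cells with the BD Rhapsody whole transcriptome assay, which captures polyadenylated RNA and tags each captured molecule with a unique molecular identifier (UMI). The embryoid library came from aggregates of Lifeact RFPruby ES cells (10000 seeded) with Gata6H2B:Venus XTE cells (50000 to 80000 seeded), which had been reprogrammed from Gata6-H2B:venus ES cells and kept in medium with CHIR99021, BMP4, Fgf4, heparin and Activin. The aggregates spent 48 h in AggreWell plates and a further 48 h in cell repellent plates. The blastocyst library came from whole embryos of B6C3F1 mice at E4.5, the late blastocyst stage, in which the trophectoderm (TE), primitive endoderm (PrE) and epiblast (EPI) have separated. Both preparations were dissociated with TrypLE, and 6000 cells were used for each library. How many embryoids or embryos were pooled is not given in the sources used here.

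Complex I (NADH dehydrogenase) and complex II (succinate dehydrogenase) pass electrons to ubiquinone, complex III passes them to cytochrome c, and complex IV (cytochrome c oxidase) passes them to oxygen. Complexes I, III and IV pump protons, and complex V, the ATP synthase, uses the resulting gradient to make ATP. Complex II is encoded wholly in the nucleus, whereas the other complexes also hold subunits encoded in mitochondrial DNA. Some subunits of complexes IV and V exist as alternative isoforms with tissue-restricted expression. In the mouse, the trophectoderm of the blastocyst is known to use more oxygen than the inner cell mass, and its sodium pump drives the filling of the cavity.

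There was 1 library of each kind, so the values below have no replicate check and no test of a difference is given. Intervals are exact 95% intervals that cover counting error only. The embryoid library held 28923930 UMIs in 5546 barcodes, of which 5328 passed the filters with a median of 4768 UMIs. The blastocyst library held 11047555 UMIs in 1288 barcodes, of which 1079 were kept with a median of 9278 UMIs. The libraries shared 9 barcodes. Clusters built without the 85 genes and named from marker genes gave 110 embryoid cells like fibroblasts (FIB-like), 3774 PrE-like and 108 EPI-like, and 375 blastocyst TE-like, 447 PrE-like and 257 EPI-like cells. In the embryoid, 4 clusters stayed unnamed and no cluster was TE-like. Levels are given in CPM, a unit that sets each gene's count against the total count of its class and scales every class to the same total. The 19 trophectoderm markers summed to 1121 CPM in embryoid PrE-like cells, against 12312 CPM in blastocyst TE-like cells. In blastocyst TE-like cells the 15 epiblast markers summed to 3110 CPM and the 20 primitive endoderm markers to 1709 CPM, and their part in the results was not tested.

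The 85 genes took a larger share of RNA in blastocyst TE-like cells than in any other named class. In the embryoid they held 1.75% of the UMIs of FIB-like cells (interval 1.71 to 1.79), 1.91% in PrE-like cells (1.90 to 1.92) and 2.22% in EPI-like cells (2.18 to 2.25). In the blastocyst the share was 3.59% in TE-like cells (3.57 to 3.61), against 2.34% in PrE-like cells (2.32 to 2.35) and 2.65% in EPI-like cells (2.63 to 2.67). All 3 embryoid classes thus lay below all 3 blastocyst classes. Mitochondrial RNA was also lower in all 3 embryoid classes than in the blastocyst classes, but within the embryoid its order differed from that of these shares. It made up 5.77%, 6.49% and 5.23% of UMIs in embryoid FIB-like, PrE-like and EPI-like cells, and 12%, 9.53% and 10.1% in blastocyst TE-like, PrE-like and EPI-like cells. Counted against non-mitochondrial UMIs alone, the 85 genes held 1.85%, 2.04% and 2.34% in the same embryoid classes, and 4.08%, 2.58% and 2.94% in the same blastocyst classes.

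Single cells gave the same order of medians. In the embryoid, the median cell devoted 1.61% of its UMIs to the 85 genes among FIB-like, 1.79% among PrE-like and 2.14% among EPI-like cells. The blastocyst medians were 3.46% in TE-like cells, 2.28% in PrE-like cells and 2.61% in EPI-like cells, and TE-like cells ran between 2.16% at the 5th and 4.89% at the 95th percentile. Of the TE-like cells, 93.9% lay above the median of the PrE-like cells. After each cell was thinned to 2000 UMIs, the medians were 1.55%, 1.8% and 2.18% in these embryoid classes, and 3.45%, 2.30% and 2.55% in blastocyst TE-like, PrE-like and EPI-like cells. The thinning left out 11, 221 and 4 cells of these embryoid classes, and 12, 36 and 10 cells of these blastocyst classes. Median UMIs per cell were 3349, 5030 and 6345 in the embryoid classes, and 8610, 9410 and 9861 in the blastocyst classes. Within classes, the share of non-mitochondrial UMIs rose with a cell's UMIs. Spearman rank correlations were 0.30, 0.26 and 0.12 in the embryoid, and 0.16, 0.32 and 0.20 in the blastocyst. Thinning does not remove such a link, and its part in the shares was not tested. Cells of 1 library are not replicates, so the spread over cells describes the classes and supports no test between them.

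**Figure D1:**
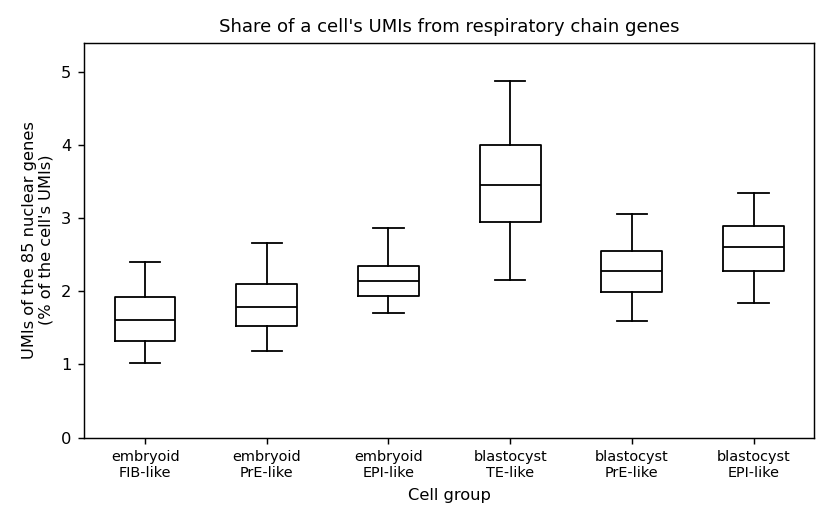
Share of a cell's UMIs that came from the 85 nuclear genes (y axis, percent of the cell's UMIs) in each named class (x axis). Boxes mark the quartiles and median over cells and whiskers the 5th and 95th percentile. The box of the blastocyst TE-like cells, with a median of 3.46%, lies above the boxes of the other 5 classes.

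To compare levels, the UMIs of all cells in a class were added up before scaling to CPM. Each gene's log2 ratio was taken as log2 of (CPM + 1) over (CPM + 1), which understates the change of low genes. A gene counted as measured in a comparison when the mean of both classes was at least 10 CPM, and as higher or lower when it passed 1.5-fold. Levels were not divided by transcript length and are compared between cell classes, not between genes. Of the 85 genes, 6 were measured in no comparison: Atp5g2, Atp5l, Atp5l2, Cox4i2, Cox6a2 and Cox7b2. A further 3, Atp5s, Ndufa4l2 and Ndufb4, were missing from 2, 7 and 1 of the 8 comparisons. Comparisons that use the same class share its library and cells, so their ratios are set side by side as values only.

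In TE-like cells of the blastocyst, the log2 ratio of most measured respiratory chain genes was above 0 against both other lineages, in 63 of 78 against EPI-like and 70 of 77 against PrE-like cells, while fewer passed 1.5-fold. Against EPI-like cells, 23 of the 78 measured genes were higher by 1.5-fold or more and 4 were lower, and the median log2 ratio was 0.35. Of all 8074 genes measured in that comparison, 20.8% were higher and 37.2% lower, with a median of -0.29. Against PrE-like cells, 40 of 77 were higher and 3 lower, with a median of 0.60. There the shares over all 8131 genes were 15.8% higher and 37.5% lower, with a median of -0.36. Because the median gene was lower in TE-like cells, scaling that sets the median gene to 0 moved these results. With that scaling, the medians were 0.63 against EPI-like cells and 0.96 against PrE-like cells, and the counts were 44 higher with 3 lower and 58 higher with 2 lower. Across pairs of single clusters, the median ran between 0.27 and 0.39 in 6 TE-to-EPI pairs and between 0.35 and 0.63 in 6 TE-to-PrE pairs, so no pair of clusters turned the direction.

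**Figure D2:**
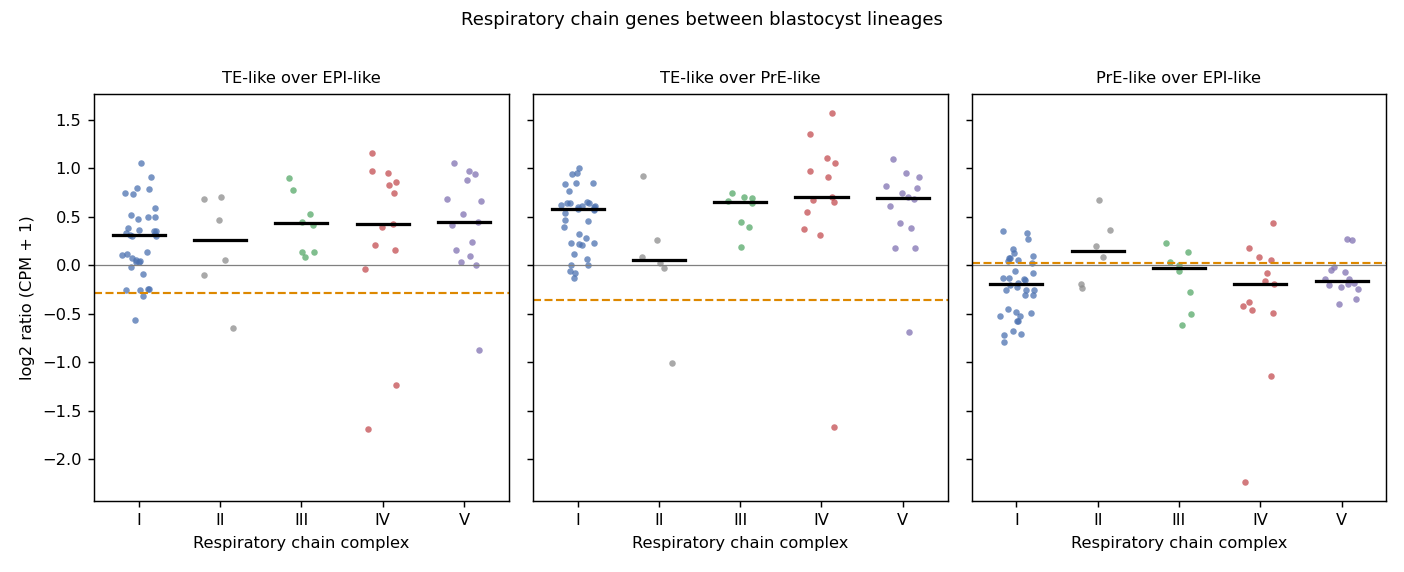
Log2 ratio of (CPM + 1) for each measured gene (points, y axis) by respiratory chain complex (x axis) in the 3 comparisons between blastocyst lineages. Black bars are medians of a complex and the dashed line is the median of all measured genes. In the TE-to-PrE panel the medians of complexes I, III, IV and V lie between 0.58 and 0.70, above the dashed line at -0.36, and that of complex II lies at 0.06.

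The complexes differed in how far they moved. Against PrE-like cells, the median log2 ratio in TE-like cells was 0.58 for complex I, 0.06 for complex II, 0.65 for complex III, 0.70 for complex IV and 0.69 for complex V. Against EPI-like cells, the medians in the same order were 0.31, 0.26, 0.43, 0.43 and 0.45. The summed CPM of a complex gives weight to its abundant genes. Complex IV summed to 12428 CPM in TE-like cells, 6835 in PrE-like cells and 8153 in EPI-like cells over the genes measured, and complex V to 11276 CPM in TE-like cells against 7384 in PrE-like cells. For complex II the sum was lower in TE-like cells, at 724 CPM, than in PrE-like cells at 855 CPM and EPI-like cells at 780 CPM.

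In complex I, 16 of 36 measured genes passed 1.5-fold upwards in TE-like against PrE-like cells, and none was lower. Of all genes measured in that comparison, 15.8% were higher and 37.5% lower. Ndufa5, an accessory subunit, had 234 CPM in TE-like cells, 117 CPM in PrE-like cells and 112 CPM in EPI-like cells. It was higher in TE-like cells than in either other lineage, with log2 ratios of 1.00 (interval 0.84 to 1.17) over PrE-like and 1.06 (0.87 to 1.26) over EPI-like cells. The accessory subunit genes Ndufb9 and Ndufa9 had log2 ratios of 0.95 and 0.94 over PrE-like cells. At the other end, Ndufa4 (-0.13), Ndufa2 (-0.08) and Ndufa13 (0.00) had about equal levels in both classes. Over EPI-like cells, 7 of 36 genes passed 1.5-fold upwards, 28 had a ratio above 0 and 8 below. Of all genes measured there, 20.8% were higher, so the count of 7 does not stand above that background. The following core subunits were picked after their values had been seen. Their ratios were mixed, and they do not stand for the core subunits not named here. Ndufv1, which binds the flavin, had log2 ratios of 0.00 over PrE-like and -0.25 over EPI-like cells, and Ndufv2, its partner, had 0.21 and -0.31. Ndufs7, which carries an iron-sulphur cluster, had 0.39 over PrE-like and 0.74 over EPI-like cells. Ndufs3, with 22.6 CPM in TE-like cells, had -0.06 and -0.01.

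Complex II was split. Sdhb, the iron-sulphur subunit, had 165 CPM in TE-like cells, 87.3 in PrE-like and 103 in EPI-like cells, and was higher in TE-like cells with log2 ratios of 0.91 and 0.68. Sdhd, a membrane anchor subunit, had 218 CPM in TE-like cells, 440 in PrE-like and 342 in EPI-like cells. It was lower in TE-like cells by a log2 ratio of -1.01 (interval -1.14 to -0.89) against PrE-like cells and -0.65 (-0.79 to -0.51) against EPI-like cells, the second of which became -0.36 when the median gene was set to 0. Sdha, the flavoprotein, and Sdhc, the other anchor, differed little from PrE-like cells, with log2 ratios of 0.09 and -0.03. The assembly factor genes Sdhaf1 and Sdhaf2 had low levels, at 17.3 and 28.7 CPM in TE-like cells, 17.0 and 23.8 CPM in PrE-like cells, and 10.3 and 20.5 CPM in EPI-like cells. Without these 2 genes, the TE-to-EPI median of complex II was -0.02 in place of 0.26, so its sign rests on them.

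Complex III was the most even of the complexes in both comparisons. All 8 of its genes had positive log2 ratios in TE-like cells against both lineages, with a range of 0.19 to 0.74 over PrE-like cells and 0.08 to 0.90 over EPI-like cells. Over PrE-like cells, 5 of the 8 passed 1.5-fold, against 15.8% of all genes measured. Uqcrh, the hinge protein that helps cytochrome c dock, had 599 CPM in TE-like cells, 378 in PrE-like and 321 in EPI-like cells. Uqcr11, a small subunit, had 172 CPM in TE-like cells, 103 in PrE-like and 100 in EPI-like cells. Lower in this order stood Uqcrc1, a core protein of the complex, with a log2 ratio of 0.19 over PrE-like cells, and Uqcrfs1, the Rieske iron-sulphur protein, with 0.39.

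Complex IV held both the highest and the lowest ratios. Over PrE-like cells, 9 of 13 measured genes were higher in TE-like cells and 1 was lower, against 15.8% and 37.5% of all genes measured. Cox5a, a subunit on the matrix side, had 200 CPM in TE-like cells, 66.7 CPM in PrE-like cells and 149 CPM in EPI-like cells. Its log2 ratio was 1.57 (interval 1.38 to 1.79) over PrE-like cells and 0.43 (0.25 to 0.61) over EPI-like cells, and its PrE-like level was also the lower of the other 2 lineages. Cox6b1, a subunit on the intermembrane side, had 1972 CPM in TE-like cells, 774 in PrE-like and 1008 in EPI-like cells, with log2 ratios of 1.35 (1.29 to 1.41) and 0.97 (0.90 to 1.03). Cox8a had 2090 CPM in TE-like cells, 970 in PrE-like and 1082 in EPI-like cells. Cox5b had 267 CPM in TE-like cells, 135 in PrE-like and 119 in EPI-like cells. On the scale with 1 CPM added, Cox6b1, Cox8a and Cox5b were 2.55-fold, 2.15-fold and 1.97-fold higher in TE-like than in PrE-like cells.

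Isoform genes of complex IV differed from their widely expressed counterparts. Cox7a1, known as the heart and muscle isoform, had 17.6 CPM in TE-like cells, 58.0 in PrE-like and 42.6 in EPI-like cells, and was lower in TE-like cells by log2 ratios of -1.67 (interval -2.15 to -1.32) and -1.23 (-1.75 to -0.82). Its widely expressed counterpart Cox7a2 had 655 CPM in TE-like cells, 316 in PrE-like and 362 in EPI-like cells, so the members of this pair moved in opposite directions. Cox6b2, known as the testis isoform of Cox6b1, had 14 CPM in TE-like cells, 9.22 CPM in PrE-like cells and 47.2 CPM in EPI-like cells. It was lower than in EPI-like cells by a log2 ratio of -1.69 (-2.26 to -1.27) in TE-like cells and of -2.24 (-2.92 to -1.82) in PrE-like cells. The epiblast level came mostly from 1 cluster: Cox6b2 had 66.2 CPM in blastocyst cluster 2 and 16.8 CPM in cluster 5, the other EPI-like cluster.

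In complex V, 9 of 14 measured genes were higher in TE-like than in PrE-like cells and Atp5sl, which is no subunit, was lower. Of all genes measured, 15.8% were higher and 37.5% lower. Atp5d and Atp5e, which encode the delta and epsilon subunits of the central stalk, had 422 and 633 CPM in TE-like cells, 197 and 389 CPM in PrE-like cells, and 204 and 322 CPM in EPI-like cells. Atp5k, a small membrane subunit, and Atp5g1, a gene for the c-ring, had log2 ratios of 0.95 and 0.91 over PrE-like cells. The catalytic head moved less, and the central stalk was split. Atp5a1 and Atp5b, the alpha and beta subunits of the head, had log2 ratios of 0.38 and 0.18 over PrE-like cells. Atp5c1, the gamma subunit of the central stalk, also had 0.18.

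PrE-like and EPI-like cells of the blastocyst differed little from each other. Of 77 measured genes, 1 passed 1.5-fold upwards in PrE-like cells and 7 were lower, with a median log2 ratio of -0.16. Over all 8244 genes measured, 22.4% were higher and 17.5% lower, with a median of 0.02. By complex the medians were -0.19 for I, 0.14 for II, -0.03 for III, -0.20 for IV and -0.16 for V, and without its assembly factor genes complex II stood at -0.05. The 1 higher gene was Sdhaf1. The lower genes were Ndufa11, Ndufs4, Ndufs8, Ndufb4, Uqcr10, Cox5a and Cox6b2. Cox5a had 66.7 CPM in PrE-like cells against 149 CPM in EPI-like cells, a log2 ratio of -1.15 (interval -1.39 to -0.93), and Uqcr10, a small complex III subunit, had 180 CPM against 277 CPM. Across 4 pairs of single clusters the median of the measured genes lay between -0.31 and 0.05.

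Promoter sequence is shown because the medians of complexes I, III, IV and V all lay above 0 in TE-like cells, and because the nuclear genes of the chain are known targets of the factors NRF1, GABP of the ETS family and YY1. RefSeq promoter windows of build GRCm38.p6, covering 250 bases before to 50 after a gene's start, were matched for 70 of the 85 genes. The letters searched on both strands were GCGCATGC for NRF1, CCGGAAGT for ETS factors and AAGATGGCG for YY1, and none of the 3 can contain another. The NRF1 letters were found in the windows of 10 of the 70 genes (14.3%), against 3.05% of all 27025 genes with a window and 7.86% of the 5027 genes measured in every comparison. The YY1 letters were found in 8 genes (11.4%), against 1.64% and 5.31%. The ETS letters were found in 5 genes (7.14%), against 4.31% and 12.2%. The set that matches the 5027 genes is the 65 chain genes with a window that were measured in every comparison. Of these 65, 8 (12.3%) held the NRF1 letters, 8 (12.3%) the YY1 letters and 5 (7.69%) the ETS letters. A match of letters is a description of the window and does not show that a factor binds there.

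The windows below show 4 matched genes, chosen to cover each motif, and the paralogs Cox6b1 and Cox6b2, whose levels differ between cell classes. Each is written 5′ to 3′ in the direction of the gene, with the matching letters in capitals.
Uqcr11, chr10:80406772-80407071, minus strand, ETS and NRF1 letters: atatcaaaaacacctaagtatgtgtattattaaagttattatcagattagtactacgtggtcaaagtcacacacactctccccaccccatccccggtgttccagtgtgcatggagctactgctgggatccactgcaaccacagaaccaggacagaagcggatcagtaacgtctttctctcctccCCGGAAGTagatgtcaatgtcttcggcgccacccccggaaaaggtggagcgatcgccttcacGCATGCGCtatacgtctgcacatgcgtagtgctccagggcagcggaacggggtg
Cox6a1, chr5:115348909-115349208, minus strand, NRF1 letters: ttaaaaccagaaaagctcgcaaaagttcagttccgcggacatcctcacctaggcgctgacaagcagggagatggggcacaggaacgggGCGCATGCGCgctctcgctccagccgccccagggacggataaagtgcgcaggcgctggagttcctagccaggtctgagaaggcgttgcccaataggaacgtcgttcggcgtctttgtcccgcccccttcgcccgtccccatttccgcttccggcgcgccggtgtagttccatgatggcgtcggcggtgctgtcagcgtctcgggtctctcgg
Cox8a, chr19:7217567-7217866, minus strand, ETS letters: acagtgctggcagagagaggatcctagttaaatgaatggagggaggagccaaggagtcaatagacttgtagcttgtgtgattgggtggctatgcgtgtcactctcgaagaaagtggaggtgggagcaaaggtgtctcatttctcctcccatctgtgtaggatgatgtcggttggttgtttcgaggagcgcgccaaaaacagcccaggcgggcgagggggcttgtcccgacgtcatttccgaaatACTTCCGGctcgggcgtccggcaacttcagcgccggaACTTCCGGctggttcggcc
Ndufa9, chr6:126849095-126849394, minus strand, YY1 letters: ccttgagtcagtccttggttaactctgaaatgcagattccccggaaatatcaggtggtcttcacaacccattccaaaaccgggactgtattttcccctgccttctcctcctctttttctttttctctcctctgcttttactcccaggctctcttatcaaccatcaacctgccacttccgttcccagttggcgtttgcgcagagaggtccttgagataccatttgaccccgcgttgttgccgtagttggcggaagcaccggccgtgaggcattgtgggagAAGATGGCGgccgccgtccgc
Cox6b1, chr7:30626065-30626364, minus strand, none of the letters: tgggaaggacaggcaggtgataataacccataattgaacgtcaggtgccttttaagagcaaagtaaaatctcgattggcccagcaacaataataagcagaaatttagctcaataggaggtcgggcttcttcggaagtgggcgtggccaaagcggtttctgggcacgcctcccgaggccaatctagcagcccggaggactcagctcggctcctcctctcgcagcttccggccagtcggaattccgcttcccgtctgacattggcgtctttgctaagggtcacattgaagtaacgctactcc
Cox6b2, chr7:4753045-4753344, minus strand, none of the letters: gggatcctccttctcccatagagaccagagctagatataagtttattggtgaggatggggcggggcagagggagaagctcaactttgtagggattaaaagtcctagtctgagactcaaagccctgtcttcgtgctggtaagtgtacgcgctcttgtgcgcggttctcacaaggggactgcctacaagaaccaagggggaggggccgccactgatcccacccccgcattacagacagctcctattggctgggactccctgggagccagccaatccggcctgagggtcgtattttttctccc

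Of these, Uqcr11 was the only one of the 70 genes that held both the NRF1 and the ETS letters, and the NRF1 letters in the Cox6a1 window lie on both strands over one overlapping stretch. Examples of both matched and unmatched genes passed 1.5-fold upwards in TE-like over PrE-like cells. They were picked, and the ratios of all matched genes were not compared with those of unmatched genes. Ndufa9, Cox6a1, Cox8a and Uqcr11 had log2 ratios over PrE-like cells of 0.94, 0.70, 1.11 and 0.74, while Cox5a and Cox6b1, with none of the letters, had 1.57 and 1.35.

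In embryoid over blastocyst PrE-like cells, these genes had a median log2 ratio somewhat below 0, with a few genes higher. Of 78 measured genes, 6 were at least 1.5-fold higher and 19 lower, with a median log2 ratio of -0.21. Over all 8532 genes measured, 25.8% were higher and 20.6% lower, with a median of 0.04. The count of lower chain genes was thus near that background. Of the 78 ratios, 46 were below 0 and 32 above. By complex, the medians were -0.18 for I, -0.06 for II, -0.13 for III, -0.34 for IV and -0.23 for V. With Ndufa4 and Ndufa4l2 counted in complex IV its median was -0.13, above those of complexes I (-0.20) and V (-0.23). The 12 pairs of single clusters gave medians between -0.53 and 0.18. The median was positive, at 0.18 and 0.04, only in the 2 pairs with embryoid cluster 7, which is shallow, at a median of 2240 UMIs, and whose leading genes include pseudogenes. Its cells held 2.30% of their UMIs in the 85 genes.

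**Figure D3:**
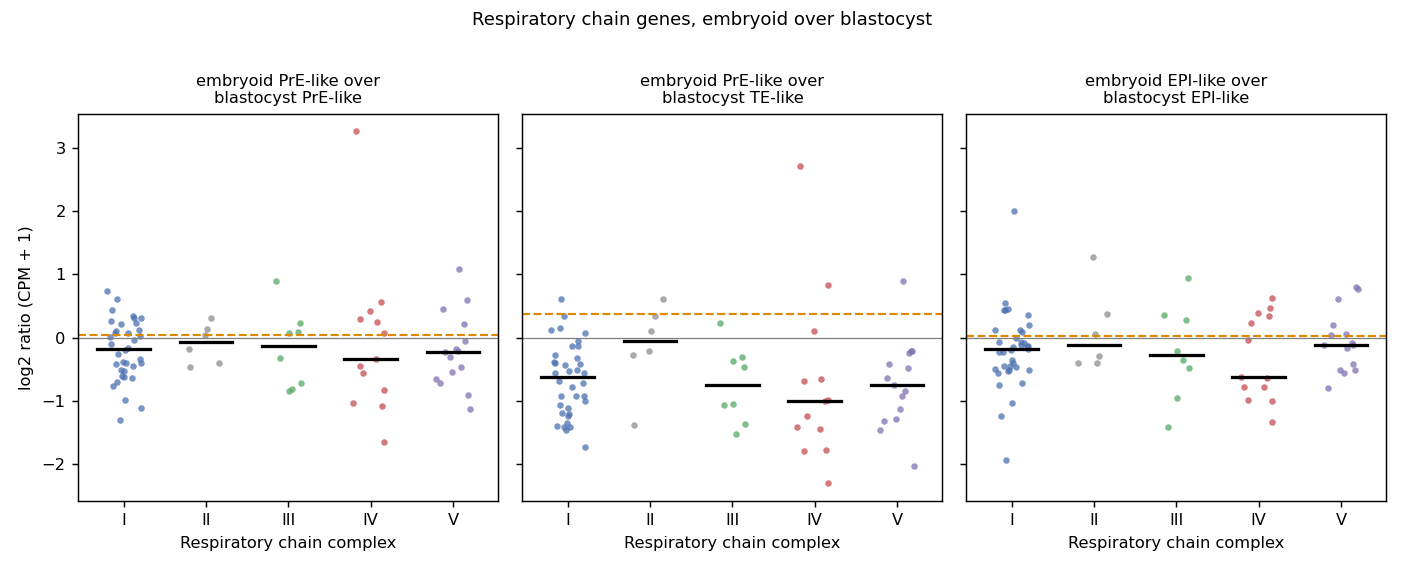
Log2 ratio of (CPM + 1) for each measured gene (points, y axis) by respiratory chain complex (x axis) in embryoid classes over blastocyst classes. Black bars are medians of a complex and the dashed line is the median of all measured genes. Cox6b2 stands alone at the top of the first panel at 3.26, while the medians of complex IV lie at -0.34, -1.01 and -0.61 in the 3 panels.

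Complex IV held the lowest and the highest of the ratios between PrE-like cells of the embryoid and the blastocyst. Cox6c, a small subunit, had 406 CPM in embryoid PrE-like cells against 1273 CPM in blastocyst PrE-like cells, a log2 ratio of -1.65 (interval -1.70 to -1.60). Its transcript end shares 23.2% of its 50-base stretches with a pseudogene, so reads of Cox6c could be split between loci, and an exon overlaps Vps13b on the opposite strand. Cox6a1, the widely expressed isoform of its subunit, had 725 CPM in embryoid against 1534 CPM in blastocyst cells, and Cox7c had 245 CPM against 501 CPM. In the other direction, Cox6b2 had 96.8 CPM (interval 92.7 to 101) in embryoid PrE-like cells against 9.22 CPM (6.52 to 12.6) in blastocyst PrE-like cells, a log2 ratio of 3.26 (2.93 to 3.90). The level lay between 62.6 and 117 CPM in the 6 embryoid clusters of this class, and at 11.6 and 3.33 CPM in the blastocyst clusters 0 and 3. Cox6b2 lies on chromosome 7 at positions 4751792 to 4753094 on the minus strand (GRCm38), and its annotated exons overlap no other gene. Cox6b1, at positions 30616861 to 30626151 of the same chromosome and strand, had 570 CPM in embryoid against 774 CPM in blastocyst PrE-like cells.

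Outside complex IV, the genes at the low end were Ndufb4 (-1.29), Ndufs5 (-1.12) and Ndufa8 (-0.98) of complex I, and Atp5g1 (-1.12), a c-ring gene, which had 129 CPM in embryoid against 281 CPM in blastocyst PrE-like cells. Ndufb4 and Ndufs5 had low levels, at 10.4 and 9.31 CPM in embryoid cells against 26.9 and 21.3 CPM in blastocyst cells. Of the other genes at least 1.5-fold higher, Uqcrh had 701 CPM in embryoid against 378 CPM in blastocyst cells, a log2 ratio of 0.89 (interval 0.82 to 0.97). Ndufa6, an accessory subunit of complex I, had 294 CPM against 175 CPM (0.75), Ndufa13 had 246 CPM against 160 CPM (0.62), and Atp5j had 406 CPM against 269 CPM (0.59). Atp5s had 20.6 CPM against 9.22 CPM (1.08).

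Set against blastocyst TE-like cells, embryoid PrE-like cells were lower in all complexes but II. Of 78 measured genes, 5 were higher and 42 lower, with a median log2 ratio of -0.69. Over all 8463 genes measured, 41.8% were higher and 18.6% lower, and the median was 0.37. With the median gene set to 0, the median of the chain genes was -1.06, with 1 gene higher and 61 lower. By complex the medians were -0.62 for I, -0.05 for II, -0.75 for III, -1.01 for IV and -0.74 for V. The subunits of complex II alone had a median of 0.04. In all 18 pairs of single clusters the median of the measured genes was negative, between -0.98 and -0.37. Cox6c had 406 CPM in embryoid PrE-like cells against 1997 CPM in TE-like cells (-2.30), Atp5g1 129 CPM against 529 CPM (-2.03), and Cox6b1 570 CPM against 1972 CPM (-1.79). Cox6b2 was higher, at 96.8 CPM against 14 CPM (2.71, interval 2.39 to 3.23).

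In embryoid EPI-like cells the 15 epiblast markers summed to 5219.8 CPM and the 20 primitive endoderm markers to 2904 CPM, against 9575 and 1859 CPM in blastocyst EPI-like cells, and the part of these markers in the results was not tested. Between EPI-like cells of the embryoid and the blastocyst, 7 of 79 measured genes were higher and 15 lower, with a median log2 ratio of -0.16. Over all 8284 genes measured, 23.2% were higher and 18.8% lower, with a median of 0.04. The count of lower chain genes was near that background. Complex IV had a median of -0.61 and the other complexes medians of -0.18 (I), -0.11 (II), -0.28 (III) and -0.11 (V). The value of complex IV depends on its makeup, since with Ndufa4 and Ndufa4l2 counted in it the median was -0.03. Within complex IV, 7 of 13 genes were lower, among them Cox6c with 708 CPM in embryoid against 1791 CPM in blastocyst cells (-1.34, interval -1.47 to -1.21). Ndufa8 had 43.0 CPM in embryoid against 167 CPM in blastocyst cells, a log2 ratio of -1.93 (-2.53 to -1.43), and Uqcr10 had 104 CPM against 277 CPM (-1.40, -1.78 to -1.07).

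The higher genes in embryoid EPI-like cells were Ndufa4l2, Sdhaf1, Uqcrh, Cox6b2, Atp5f1, Atp5j and Atp5s. Uqcrh had 619 CPM in embryoid against 321 CPM in blastocyst cells (0.94, interval 0.78 to 1.11), close to its ratio between PrE-like cells. Cox6b2 had 73.6 CPM in embryoid against 47.2 CPM in blastocyst cells (0.63, 0.15 to 1.12), and with mitochondrial genes left out of the total its ratio was 0.56, below 1.5-fold. Ndufa4l2, a paralog of Ndufa4 known as a target of the hypoxia-inducible factor, had 16.7 CPM from 12 UMIs in embryoid against 3.42 CPM from 9 UMIs in blastocyst cells. Its log2 ratio of 2.00 (0.91 to 3.71) stands on these few counts, and it counted as measured only through its embryoid level. In embryoid PrE-like cells 2 UMIs of Ndufa4l2 were found, in FIB-like cells 4, and none in blastocyst TE-like or PrE-like cells, where 3 UMIs would be 0.837 and 0.728 CPM.

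**Figure D4:**
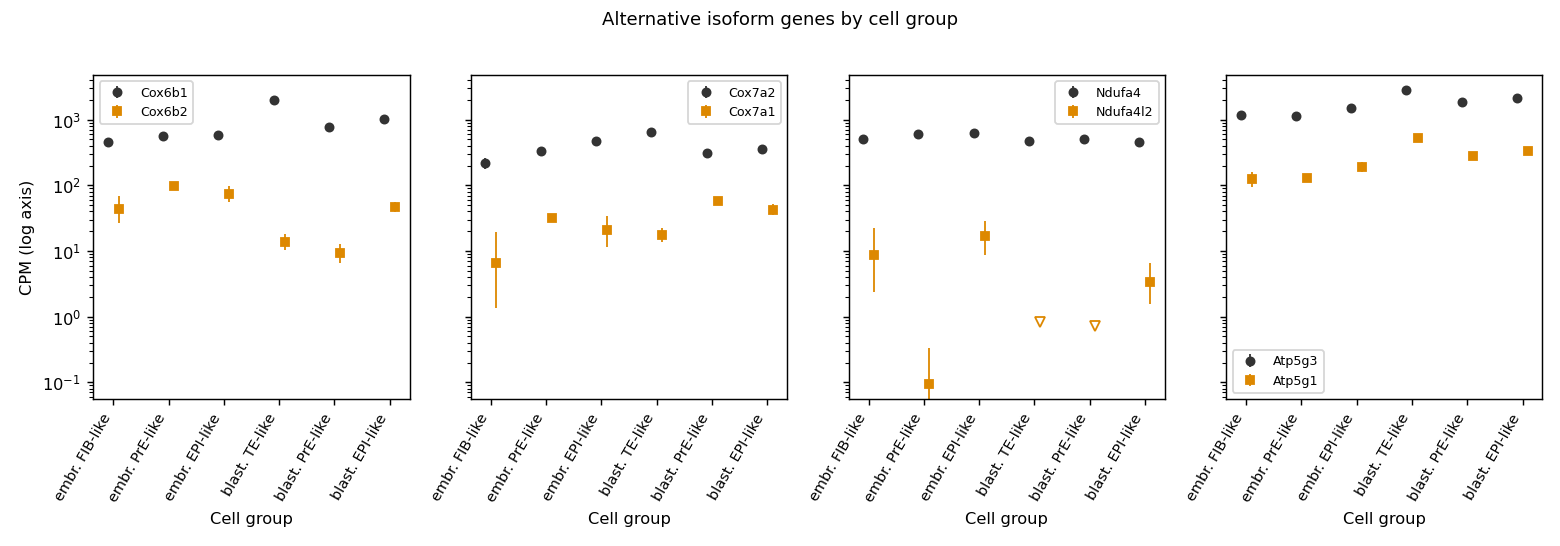
Levels in CPM on a log axis (y axis) of alternative isoform or paralog genes in the 6 named classes (x axis), with exact 95% counting intervals. Open triangles mark the level of 3 UMIs where no UMI was found. Cox6b2 lies between 44.1 and 96.8 CPM in the embryoid classes and between 9.22 and 47.2 CPM in the blastocyst classes.

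Other isoform genes kept low levels. Cox4i2, Cox6a2 and Cox7b2, which are isoform genes known from lung, from muscle and from testis, had at most 5 UMIs in any class outside embryoid PrE-like cells, where Cox4i2 had 12 and Cox7b2 had 15. The 5 UMIs belonged to Cox6a2 in embryoid FIB-like cells and came to 11 CPM (interval 3.58 to 25.7). Atp5g1 and Atp5g3, which encode the same mature c-ring subunit, both had higher levels in the blastocyst classes. Atp5g1 had 124, 129 and 192 CPM in embryoid FIB-like, PrE-like and EPI-like cells, and 529, 281 and 334 CPM in blastocyst TE-like, PrE-like and EPI-like cells. Atp5g3 had 1198, 1142 and 1500 CPM in the same embryoid classes, and 2846, 1864 and 2143 CPM in the same blastocyst classes.

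Within the embryoid, these genes had a median log2 ratio slightly below 0 in PrE-like over EPI-like cells. Of 78 measured genes, 5 were higher and 9 lower, with a median log2 ratio of -0.26. Over all 8687 genes measured, 30% were higher and 22.9% lower, with a median of 0.05. Neither count of chain genes stood above that background. The medians by complex were -0.30 for I, -0.19 for II, -0.08 for III, -0.05 for IV and -0.30 for V. Ndufs7, a core subunit of complex I, had 54.5 CPM in PrE-like cells against 30.5 CPM from 22 UMIs in EPI-like cells (0.81, interval 0.23 to 1.51). Cox6c had 406 CPM in PrE-like against 708 CPM in EPI-like cells (-0.80), and Uqcrc1 had 87.2 CPM against 142 CPM (-0.69). Pairs of single clusters gave medians between -0.45 and 0.08.

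FIB-like cells of the embryoid had levels near those of PrE-like cells, with the lowest median in complex IV. In FIB-like cells the 20 primitive endoderm markers summed to 5682 CPM and the 13 fibroblast markers to 4305 CPM, against 21672 and 17.1 CPM in PrE-like cells. Embryoid doublets were not removed, and their part in the ratios was not tested. Of 77 measured genes, 4 were higher and 11 lower, with a median log2 ratio of -0.11. Over all 9059 genes measured, 23.2% were higher and 19.6% lower, with a median of 0.06, so neither count of chain genes stands above that background. At a clustering resolution of 0.5 the FIB-like class was a larger set of cells, 440 in place of 110. The counts there were 1 higher and 2 lower. With other limits on mitochondrial UMIs, 7 or 6 were lower. Across 6 pairs of single clusters the median of the measured genes ran between -0.35 and 0.11. It was above 0 against embryoid clusters 3 (0.05) and 5 (0.11). Complex IV had a median of -0.39, with 5 of 13 genes lower and none higher, while complexes I, II, III and V had -0.11, -0.08, -0.26 and 0.01. Cox7a1 had 6.62 CPM from 3 UMIs in FIB-like cells against 32.2 CPM in PrE-like cells (-2.12, interval -4.56 to -0.73). Cox6b2 had 44.1 CPM against 96.8 CPM (-1.12, -1.85 to -0.50), and Uqcr11 had 41.9 CPM against 81.9 CPM (-0.95, -1.70 to -0.32). At a clustering resolution of 0.5, these 3 ratios were -0.58, -0.42 and -0.29, and none of them passed 1.5-fold. Higher in FIB-like cells were Ndufv3, a subunit of the flavoprotein arm, with 344 CPM against 191 CPM (0.85, and 0.43 at resolution 0.5, below 1.5-fold), and Ndufs1, a core iron-sulphur subunit, with 126 CPM against 76.9 CPM (0.70). Ndufs3, whose transcript end is largely shared with another gene, and Ndufs5 were also higher, from 20 and 8 UMIs in FIB-like cells.

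The shares by cluster show which cells stand apart. Embryoid cluster 11, which stayed unnamed because leading genes of another class stood among its own, had 86 cells with a median mitochondrial share of 0.202%, against 6.56% for PrE-like cells. It held 1.42% of its UMIs in the 85 genes, and against embryoid PrE-like cells 25 of 76 measured genes were at least 1.5-fold lower and 1 was higher, with a median log2 ratio of -0.44. Of all 8654 genes measured in that comparison, 19.3% were lower and 25.7% higher, with a median of 0.10. The other unnamed clusters lay near the PrE-like class, with medians of -0.15 in cluster 2, -0.03 in cluster 6 and -0.25 in cluster 8. In the blastocyst, TE-like cluster 6 had the lowest mitochondrial share of the TE-like clusters, at 8.32%, and still held 3.90% of its non-mitochondrial UMIs in the 85 genes, against 4.10% and 4.14% in clusters 1 and 4.

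**Figure D5:**
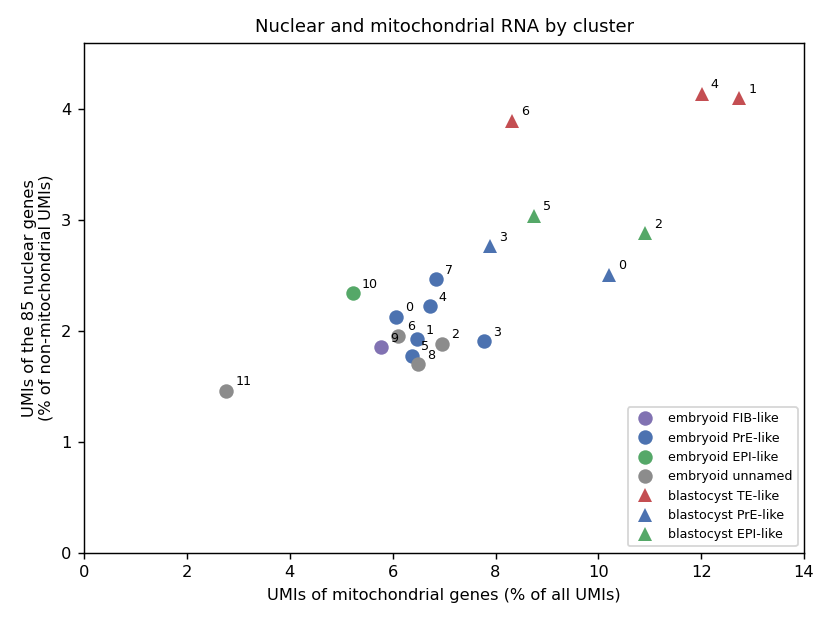
UMIs of the 85 nuclear genes as a percentage of non-mitochondrial UMIs (y axis) against UMIs of mitochondrial genes as a percentage of all UMIs (x axis) for each cluster, numbered within its library. Circles are embryoid clusters and triangles blastocyst clusters, coloured by class. The 3 TE-like clusters lie between 3.90% and 4.14% and embryoid cluster 11 lies lowest, at 1.46%.

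Genes that work with the chain were read for context from other lists. The mitochondrially encoded subunits were measured for 8 of 13 genes. Their medians were 0.13 in TE-like over EPI-like cells and 0.31 in TE-like over PrE-like cells, below those of the nuclear genes, and -0.25 in PrE-like over EPI-like cells, where the nuclear genes had -0.16. None passed 1.5-fold between blastocyst lineages. These subunits were lower in the embryoid than in the blastocyst. Between PrE-like cells the median was -0.37, with 2 of 8 lower, against 20.6% of all genes measured. Between EPI-like cells the median was -0.92, with all 8 lower, against 18.8% of all genes measured. Within the embryoid, 7 were measured in PrE-like over EPI-like cells. All 7 had ratios above 0, with a median of 0.35, where the nuclear genes had -0.26. For the abundant mt-Cytb, of complex III, EPI-like cells had 10917 CPM in the embryoid against 21846 CPM in the blastocyst. Few UMIs were counted for mt-Co2, mt-Co3, mt-Atp6, mt-Atp8 and mt-Nd4l, at most 46 in embryoid PrE-like cells, so complex V and most of complex IV cannot be read from their mitochondrial genes here.

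Other lists are read against the median of all genes, which was -0.36 in TE-like over PrE-like cells, with 15.8% of genes higher and 37.5% lower. In that comparison the enzymes of pyruvate dehydrogenase and the TCA cycle had a median of 0.44, with 4 of 17 higher and none lower. The 71 measured genes of the mitochondrial ribosome had a median of -0.06, with 1 higher and 7 lower, and the 32 measured assembly factors of the chain had -0.04, with 4 higher and 6 lower. The 14 measured regulators of mitochondrial genes had a median of -0.59, with 2 higher and 7 lower. In embryoid over blastocyst PrE-like cells, 25.8% of all genes measured were higher and 20.6% lower, with a median of 0.04. There the mitochondrial ribosome had a median of -0.40, with 24 of 71 genes lower and 2 higher. The assembly factors had -0.34, with 12 of 32 lower and 2 higher. Glycolysis genes ran the other way in that comparison, with a median of 1.12 and 11 of 15 higher and none lower, as did the 9 measured genes of the hypoxia list, all of which were higher, with a median of 2.32. The hypoxia list was also above the median of all genes where the chain genes were, but its genes were split. In TE-like over PrE-like cells its median was 1.88, with 4 of 6 higher and 1 lower. In TE-like over EPI-like cells its median was 1.07, with 5 of 8 higher and 3 lower. Of all genes measured in the latter comparison, 20.8% were higher and 37.2% lower. Glycolysis genes had a median of -0.33 in TE-like over PrE-like cells, close to that of all genes, and of -0.76 in TE-like over EPI-like cells, with 4 of 13 higher and 7 lower, against -0.29 for all genes.

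Short transcripts are common among the chain genes, whose median transcript length was 680 bases, against 2109 bases over all genes with a length. Among genes under 1000 bases, the 56 measured chain genes had a median of 0.35 in TE-like over EPI-like cells, against -0.16 for the 1445 other genes, and 55 had 0.64 over PrE-like cells, against -0.18 for 1450 other genes. In embryoid over blastocyst PrE-like cells, the same length class had medians of -0.26 for 56 chain genes and 0.01 for 1490 other genes. In this length class the chain genes thus lay above the other genes in TE-like cells and below them in embryoid over blastocyst PrE-like cells. The part of transcript length in the ratios was not tested. Of the 85 genes, 31 have an exon that overlaps another gene and 4 share at least 50% of the end of their transcript with another gene (Atp5g2, Atp5h, Atp5l and Ndufs3). Smaller shared stretches were found in other genes named above, at 42.6% in Ndufs5, 39.9% in Atp5g1, 38.1% in Cox7c, 24.0% in Atp5f1 and 20.3% in Cox5b, and the values of these genes are uncertain to that extent. Cox5a, Cox6a2, Cox6c, Atp5a1, Atp5d, Atp5f1, Atp5j, Ndufa2, Ndufa9, Ndufa11, Ndufa13, Ndufa4l2, Ndufs1, Ndufs3, Sdhaf1 and Sdhaf2 overlap an exon of a gene on the opposite strand. Whether reads were counted by strand is not given in the sources used here, so the RNA of such partners cannot be told apart. Sdhd, Cox6b1, Cox6b2, Cox7a1, Cox8a, Ndufa6, Ndufa8, Uqcr10 and Uqcrq had neither an overlap nor a shared stretch.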

How the data were processed

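The deposited tables hold UMI counts per gene and cell barcode, made by the authors from polyadenylated RNA. The build was mm10 and the tools were STAR 2.7.1a, featureCounts 1.6.4, Subread, UMI-tools 1.0.1 and bcl2fastq 2.19.1.403, per the submitters' processing notes. Libraries were made with the BD Rhapsody WTA kit, per the labels' protocols. Neither the annotation nor the strand setting was stated.

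Cells with at least 1000 UMIs, at least 500 genes and at most 25% mitochondrial UMIs were kept. Scrublet (in scanpy 1.11.5, Python 3.11.15) called 18 of 1097 blastocyst cells (1.64%), which were removed, and 0 of 5328 embryoid cells, where it had not worked, so embryoid doublets remain. Each library was clustered alone without the 85 genes, the context lists, mitochondrial and ribosomal genes, on 2000 variable genes, 30 components and 20 neighbours, by Leiden clustering at resolution 1 (leidenalg 0.10.2). Classes were named from 101 markers of 9 cell types. The scoring of markers, including the rule that a cluster with no leading marker and few high markers stays unnamed, was written after marker levels had been seen.

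From the counts, CPM per class, log2 ratios with 1 CPM added, exact 95% Poisson and conditional binomial intervals and medians were computed (numpy 2.4.6, scipy 1.17.1, pandas 2.3.3). They cover counting error only, and 1 library per group allows no test. The calculation was tested on simulated data. Members and lists were chosen with earlier results of these data known. Named genes are, per comparison and complex, among the 2 highest and 2 lowest measured genes, all of complex II and fixed isoform pairs; others were named after their values were seen. Transcript lengths, overlaps and shared ends come from GENCODE annotation of GRCm38, and promoter windows from RefSeq, GRCm38.p6. Alternatives changed the scaling, the filters, the added CPM, the fold, the members and the clusters.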

Additional observations from a re-analysis of the deposited data

Results flagged for a closer look

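For 3 genes the PrE-like over EPI-like ratio had opposite signs in the libraries, each beyond 1.2-fold and with a counting interval that left out 0. How many of all genes meet this rule was not counted, so the 3 genes have no background to be read against. With 1 library of each kind, the difference between the libraries was not tested. Cox6b2 had a log2 ratio of 0.39 in the embryoid (96.8 CPM in PrE-like and 73.6 CPM in EPI-like cells) and of -2.24 in the blastocyst (9.22 CPM in PrE-like and 47.2 CPM in EPI-like cells). Ndufa6, an accessory subunit of complex I, had 0.29 in the embryoid (294 CPM in PrE-like and 240 CPM in EPI-like cells) and -0.52 in the blastocyst (175 CPM and 251 CPM in the same order). Uqcrq, a small subunit of complex III, had 0.31 in the embryoid (447 CPM in PrE-like and 361 CPM in EPI-like cells) and -0.28 in the blastocyst (378 CPM and 460 CPM in the same order). The embryoid EPI-like class had 108 cells, and its values for these genes rest on 53 UMIs of Cox6b2, 173 UMIs of Ndufa6 and 260 UMIs of Uqcrq. Over the 77 genes measured in both libraries, the embryoid ratio minus the blastocyst ratio had a median of -0.05, with 34 genes above 0 and 43 below, against -0.06 over all 7654 genes measured in both. In complex V, 2 of 14 genes lay above 0 and 12 below, with a median of -0.22, and 0 passed 1.5-fold in either direction. Of all 7654 genes, 3542 lay above 0 and 4112 below, and 1474 passed 1.5-fold upwards and 1776 downwards.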

How the results depend on the processing

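The median log2 ratio over the measured genes kept its sign in all 8 comparisons under every alternative run. Pairs of single clusters are not among these alternatives, and in some comparisons their medians took both signs. An interval of this median was taken from the ranked ratios of the genes, as if these were independent, and does not describe counting error. The median moved beyond this interval in 6 of 128 recalculations. With the median gene set to 0 it was 0.63 for TE-like over EPI-like cells, 0.96 for TE-like over PrE-like cells, -1.06 for embryoid PrE-like over blastocyst TE-like cells and -0.17 for FIB-like over embryoid PrE-like cells. Without mitochondrial and ribosomal protein genes in the total, TE-like over PrE-like cells gave 0.65. At a clustering resolution of 0.5, where the FIB-like class held 440 cells in place of 110, FIB-like over embryoid PrE-like cells gave -0.046. Counts past the fold were less stable, and 44 of 272 changed by more than 1.5 times. TE-like over PrE-like cells had between 6 genes higher, at 2-fold, and 58, with the median gene set to 0, and TE-like over EPI-like cells between 3 and 44 under the same settings. At 2-fold, 10.7% and 14.2% of all measured genes were higher in these comparisons. Embryoid over blastocyst PrE-like cells had between 6 and 21 genes lower, embryoid PrE-like over blastocyst TE-like cells between 29 and 61, and embryoid over blastocyst EPI-like cells between 5 and 21. Of 6162 recalculations for single genes, 100 lost the 1.5-fold mark, 77 gained it and none that had it changed sign. Adding the unnamed embryoid clusters 2 and 8, leaving out cluster 7, the shared barcodes or the genes with shared ends were alternatives chosen after seeing the data. No paired analysis was possible because each group had 1 library. Depth limits the embryoid EPI-like and FIB-like classes, where 3 UMIs equal 4.17 and 6.62 CPM.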

Other observations

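Some genes of oxidative phosphorylation fall outside the symbol rule. The list of 5 such genes (Ndufab1, Cyc1, Cycs, Usmg5 and Atpif1) had a median log2 ratio of 0.34 in TE-like over PrE-like cells of the blastocyst, with 1 gene higher and none lower, and of -0.12 in embryoid over blastocyst PrE-like cells, with 1 lower and none higher. Of all genes measured, 15.8% were higher in the first of these comparisons and 20.6% were lower in the second. Usmg5, a small membrane subunit of the ATP synthase, had 510 CPM in TE-like cells against 292 CPM in PrE-like cells. Atpif1, the inhibitor of the ATP synthase, had 414 CPM in TE-like cells against 568 CPM in PrE-like cells, a log2 ratio of -0.46 (interval -0.55 to -0.36). Cycs, the electron carrier cytochrome c, had 63.4 CPM in embryoid against 98.5 CPM in blastocyst PrE-like cells (-0.63).

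Carriers and channels that exchange metabolites, nucleotides and phosphate across the mitochondrial membranes were mixed. In TE-like over PrE-like cells 3 of 11 measured genes were higher and 4 lower, with a median of -0.05. Of all genes measured there, 15.8% were higher and 37.5% lower. Vdac3, an outer membrane channel, had 100.2 CPM in TE-like cells against 32.3 CPM in PrE-like cells, whereas Slc25a1, the citrate carrier, had 29.0 CPM against 162 CPM. Slc25a5, an adenine nucleotide carrier, had 305 CPM in embryoid against 1111 CPM in blastocyst PrE-like cells, a log2 ratio of -1.86 (interval -1.92 to -1.81), while its isoform Slc25a4 had 580.1 CPM in embryoid against 521 CPM in blastocyst cells. Between EPI-like cells of the embryoid and the blastocyst, glycolysis genes had a median of 1.33, with 13 of 17 measured genes higher and none lower. The hypoxia list had 1.84, with 7 of 9 measured genes higher and none lower. Over all genes measured in that comparison, 23.2% were higher and 18.8% lower, with a median of 0.04.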
